A study of Mus musculus with 20 samples.

Results

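Hippocampi of 20 mice were compared by genotype across all brain states, with 9 libraries labelled APP/PS1 set against 11 labelled WT. All 20 libraries of the series entered the comparison, which was defined by the labels alone. Each library was 1 mouse, and the unique molecular identifiers (UMIs, each marking 1 captured RNA molecule) of all its nuclei were added up per gene. The mice were males of 4.5 to 5.5 months, either WT or littermates with the APP/PS1 (APPSwe/PS1ΔE9) transgenes. Wake mice numbered 3 APP/PS1 and 6 WT. Isofluran mice, 4 APP/PS1 and 3 WT, were anesthetized for 3 h with isoflurane that was started at 5% and lowered to 1.5%. Ketamine mice, 2 of each genotype, received 150 mg/kg ketamine with 12 mg/kg xylazine for 3 h. The series' design text gives other sizes for the Wake and Isofluran groups of both genotypes, and the sample titles were followed here. The genotype difference was taken with treatment as a covariate, so that it was read within Wake, Isofluran and Ketamine and pooled over them.

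APP/PS1 mice carry a human-mouse App gene with the Swedish mutation and a mutant human presenilin gene, both placed behind regulatory sequence of the prion protein gene Prnp. The transgenes therefore bring Prnp sequence into the genome of carriers, and amyloid-β accumulates in their hippocampus with age. Around amyloid plaques, microglia take on a lysosomal and lipid-handling gene programme, and astrocytes raise Gfap and other reactive genes. Nuclear RNA from whole hippocampus mixes neurons, which hold most of the RNA, with these rarer glial cells.

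The files held 160777 nuclei, between 4743 and 10877 per library, and 9243992 to 25394891 UMIs per library. Pairs of libraries shared at most 35 nucleus barcodes and at most 0.407% of the smaller library. Markers of dentate granule, CA1 and CA3 neurons were present in every library, with summed levels of 273–800, 233–503 and 478–1130 UMIs scaled to a common library size (CPM), so the defining neurons of the labelled tissue were present. The mitochondrially encoded share of UMIs was 0.939–1.78% in mice 1 to 4, a set with 1 mouse of each genotype in Wake and in Isofluran, and 0.0353–0.336% in the other 16. Choroid plexus markers reached 489–1123 CPM in mice 2, 3, 10, 11, 14, 26, 28 and 29 and stayed at 20.3–103 CPM in the remaining 12.

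Depth and tissue make-up were compared between genotypes before any gene was. Of 21 properties tested by a two-sided exact permutation test within treatment, none passed 0.05 after Benjamini-Hochberg adjustment. Total UMIs came closest, 1.26-fold higher in APP/PS1 libraries (exact p = 0.0374, adjusted p = 0.45), with 17348178–25394891 in APP/PS1 and 9243992–21768074 in WT. Microglia markers had a fold of 1.00 (exact p = 1, adjusted p = 1) and spanned 99.3–312 CPM in APP/PS1 and 90.5–255 CPM in WT. Astrocyte markers stood at 1.15-fold (exact p = 0.0642, adjusted p = 0.45). Red blood cell markers stood at 1.57-fold (exact p = 0.0574, adjusted p = 0.45), from 36.9 to 221 CPM in APP/PS1 against 31.6 to 81.2 CPM in WT. Endothelial and mural markers peaked in 1 APP/PS1 library, mouse 10, at 319 and 220 CPM. In sums over all nuclei, fewer cells of a type and less RNA per cell cannot be told apart.

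**Figure D1:**
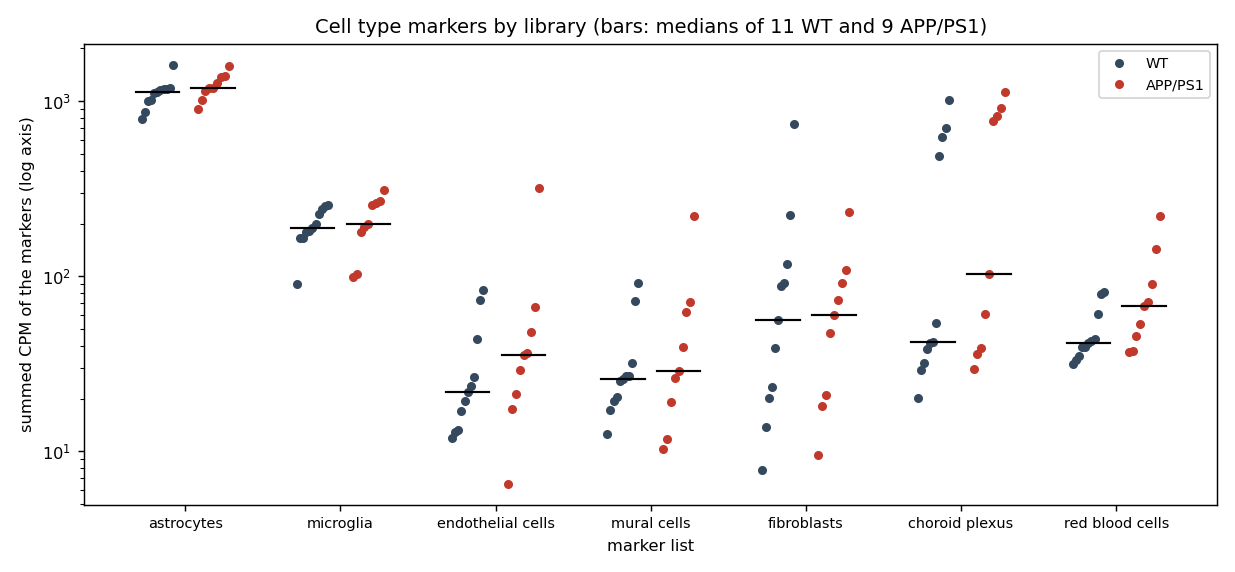
Summed level of cell type marker lists (CPM, log axis) in the 20 libraries. Shown are astrocytes, microglia, endothelial cells, mural cells, fibroblasts, choroid plexus and red blood cells. Dots are libraries, dark for WT and red for APP/PS1, and bars are medians. The genotypes overlapped in every list shown, and the choroid plexus markers of both fell into a low and a high set.

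The genotype labels were checked with Prnp (ENSMUSG00000079037, chromosome 2, 131909928–131938429, plus strand, GRCm38), whose sequence the transgenes carry. In Wake the 3 APP/PS1 mice had 410 (mouse 2), 217 (mouse 10) and 75.3 CPM (mouse 17), and the 6 WT mice spanned 48.9 to 196 CPM. In Isofluran the APP/PS1 mice had 311 (mouse 15), 281 (mouse 4), 100.5 (mouse 20) and 68.3 CPM (mouse 11), against 132, 74.2 and 61.0 CPM in WT. In Ketamine both APP/PS1 mice, at 203 and 192 CPM, lay above both WT mice, at 49.3 and 44.7 CPM. Levels averaged 206 ± 115 CPM in APP/PS1 (SD, n = 9) and 89.0 ± 45.8 CPM in WT (SD, n = 11). The groups overlapped, since 5 of the 9 APP/PS1 libraries lay above the highest WT library and 6 of the 11 WT libraries fell within the APP/PS1 range.

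Prnp did not set some mice apart by label. Mice 11, 17 and 20, labelled APP/PS1, had Prnp within the range of the WT mice of their own treatment, and mouse 14, labelled WT, had 196 CPM where the other WT Wake mice reached at most 116 CPM. Groups are therefore named as labelled throughout, and the main counts below are also given without mice 11, 17 and 20 and without these 3 and mouse 14. Both sets were chosen after the Prnp levels were seen, so Prnp itself is no test in them.

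Over all states Prnp was 2.29-fold higher in mice labelled APP/PS1 (log2 1.19), although single libraries of the genotypes overlapped. Among the 17640 ways to assign the labels within treatment, few gave a difference as large (exact permutation, two-sided, p = 0.00952). Leaving out 1 library at a time gave log2 differences from 1.02 without mouse 2 to 1.45 without mouse 17, all under 0.05 by the exact test. Within single treatments the exact test did not pass 0.05. Wake gave 2.02-fold (exact p = 0.167, smallest possible 0.0119), Isofluran 1.86-fold (exact p = 0.314, smallest possible 0.0286), and Ketamine 4.21-fold at the smallest p that 2 against 2 allows (exact p = 0.333).

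App itself (chromosome 16, 84949685–85173766, minus strand), the amyloid precursor protein gene, differed far less. Levels averaged 510 ± 53.5 CPM in APP/PS1 (SD, n = 9) and 472 ± 43.5 CPM in WT (SD, n = 11), a 1.11-fold difference (two-sided exact permutation test, p = 0.0118). The ranges overlapped widely, with 10 of the 11 WT libraries inside the APP/PS1 range. Mice 11, 17 and 20 had 455, 518.5 and 456 CPM of App, within the range of the WT mice of their treatment. So did mice 4 and 10 (433 and 504 CPM), which were high in Prnp. Within treatments the folds were 1.08 in Wake (exact p = 0.19), 1.11 in Isofluran (exact p = 0.4) and 1.19 in Ketamine (exact p = 0.333). How far transgene transcripts were counted under App or Prnp is not given in the sources used here.

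**Figure D2:**
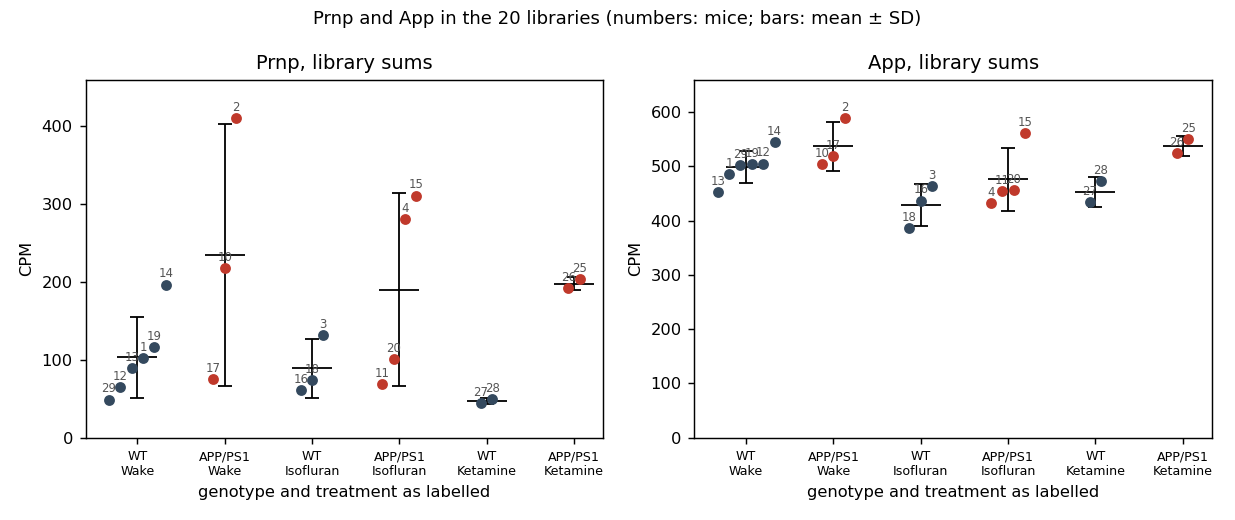
Levels of Prnp (left) and App (right) in each library (CPM, linear axes from 0), grouped by labelled genotype and treatment; numbers are mice and bars are means ± SD. Prnp of mice 11, 17 and 20 lay among the WT mice of their treatment, and App of both genotypes filled a narrow range.

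Across the transcriptome no gene separated the genotypes over all states. Of 19684 genes tested with edgeR's quasi-likelihood test, 0 (0%) passed an adjusted p of 0.05, and DESeq2 called 0 as well. Unadjusted p-values under 0.05 numbered 216 (1.1% of genes, where 5% is the nominal share), 109 higher and 107 lower in APP/PS1, and 230 (1.17%) with DESeq2. Leaving out 1 library moved this count to between 141 (without mouse 10) and 681 (without mouse 20), with 497 without mouse 3 and 457 without mouse 17. The median log2 difference of all genes was 0.0032. On simulated counts with these 20 libraries' depths and gene-wise spread, the test recovered 72% of genes changed 2-fold and 95% of genes changed 3-fold. Changed genes were drawn only from those with an average log2 CPM above 0. Differences between treatments or sets of libraries were not simulated. The shares therefore do not speak for genes at lower levels or for counts with such differences. Without mice 11, 17 and 20 the count of unadjusted p-values under 0.05 grew to 1078 of 19462 genes (5.54%), 424 higher and 654 lower, and Prnp alone was called. Without mouse 14 as well it was 989 of 19379 genes (5.1%), again with Prnp as the only call. These libraries were picked by a measured level, and what the larger counts come from was not tested.

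Prnp had the smallest p of all genes in the fit over all libraries, with a log2 difference of 1.33 ± 0.33 (SE) and an adjusted p that rounded to 1 (edgeR), as it did for every gene tested. Next among the genes higher in APP/PS1, none of them called, were a few whose group means differed little. Golm1, a Golgi membrane protein gene, averaged 41.2 ± 4.55 CPM in APP/PS1 and 34.8 ± 3.92 CPM in WT (log2 0.24 ± 0.09 SE). Mmgt1, a subunit gene of the membrane protein insertion complex of the endoplasmic reticulum, averaged 4.27 ± 1.13 against 3.19 ± 0.663 CPM (log2 0.48 ± 0.16 SE). For Golm1 the ranges were 35.6–47.7 CPM and 28.7–39.0 CPM, so the genotypes overlapped. Hist2h2be, a histone H2B gene, averaged 1.99 ± 0.455 against 1.38 ± 0.353 CPM (log2 0.50). Plekhf2, an endosomal protein gene, averaged 5.46 against 4.29 CPM (log2 0.39). Its level was 8.75 CPM in mouse 10 and 3.18–5.71 CPM elsewhere, and without mouse 10 its log2 difference was 0.26. The cadherin gene Cdh24, one of the CA3 neuron markers used here, averaged 10.9 against 8.70 CPM.

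Cngb3 and Srarp, also high in this ranking, rested on 1 library. Cngb3, a channel subunit gene of cone photoreceptors, had 13.3 CPM in mouse 2, 3.98 CPM in mouse 11 and 2.97 CPM in mouse 12, and at most 1.41 CPM elsewhere. Srarp had 7.42 CPM in mouse 10 and at most 1.66 CPM elsewhere. Without mouse 2 the log2 difference of Cngb3 was 0.71, and without mouse 10 that of Srarp was 0.30. Gm28941 (log2 1.05 ± 0.31 SE) and Tceal7 (log2 0.63 ± 0.23 SE) were low throughout, with averages under 1 CPM in both genotypes.

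Among genes lower in APP/PS1, Macrod1, which encodes a mitochondrial enzyme that removes ADP-ribose, averaged 65.9 ± 9.83 CPM against 83.3 ± 15.7 CPM in WT (log2 −0.35 ± 0.10 SE). APP/PS1 libraries spanned 49.6–80.3 CPM with a median of 64.8 CPM, and WT libraries 57.4–115 CPM with a median of 78.8 CPM. Flrt1, an adhesion protein gene, stood at 21.2 against 24.9 CPM (log2 −0.27 ± 0.09 SE). Flrt1 lies on chromosome 19 at 7092001–7105729 (minus strand), inside the span of Macrod1 on the opposite strand (7056810–7198057). Xkr7, a member of the XK-related family, averaged 1.81 against 2.64 CPM (log2 −0.50). The noncoding Gm46102 and Gm38825 had log2 differences of −0.50 and −0.52, and the meiotic gene Syce3 −0.69.

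The remaining genes on the lower side followed a few WT libraries. The homeobox gene Shox2 reached 4.37 CPM in mouse 16 and 2.96 CPM in mouse 14, while no APP/PS1 library exceeded 0.399 CPM (log2 −3.43). Gm10076 had 51.8 CPM in mouse 3 and 44.2 CPM in mouse 28, with 13.3 and 10.8 CPM in mice 29 and 27 and at most 7.07 CPM elsewhere (log2 −2.78). D130079A08Rik stood at 15.7 CPM in mouse 16 and at most 4.57 CPM in any other library, and Olfr1330 at 2.25 CPM in mouse 29 and at most 1.40 CPM elsewhere.

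Microglial genes tied to plaques did not separate the genotypes in these sums over all nuclei. The list summed to 997–4185 CPM per library, while microglia markers summed to 90.5–312 CPM. The sums do not show which cells the UMIs of the list came from. Of 26 listed genes 23 could be tested, 0 were called and 0 had an unadjusted p under 0.05 (background 1.1%). Of the 23, 16 were on the higher side in APP/PS1, with a median log2 difference of 0.10 beside 0.0032 over all genes. Within Wake 19 of 23 were higher (median 0.41), within Isofluran 7 of 23 (median −0.28) and within Ketamine 16 of 23 (median 0.26). Cst7, an inhibitor of lysosomal proteases and one of the defining genes of this state, averaged 1.11 ± 0.725 CPM in APP/PS1 and 1.25 ± 0.454 CPM in WT (log2 −0.31 ± 0.32 SE). Itgax, an integrin gene of the same state, was below the filter, with 0 to 2 UMIs per library in both genotypes. B2m, the light chain of class I antigen-presenting molecules, had a log2 difference of 0.43 ± 0.27 (SE), the receptor kinase gene Axl 0.28 ± 0.20 and the lipase gene Lpl 0.22 ± 0.17. Homeostatic microglia genes, 17 tested and 0 called, had a median of 0.03, with 13 of 17 higher in Wake and 4 of 17 in Isofluran. Their summed level was 386–424 CPM in mice 1 to 4 and 107–378 CPM in the other 16, and the complement gene C1qb had 28.1–37.6 CPM in mice 1 to 4 against 1.43–10.0 CPM elsewhere. Both medians moved with single libraries, plaque-associated genes from −0.10 without mouse 2 to 0.31 without mouse 3 and homeostatic genes from −0.20 to 0.22 without the same mice. Csf1r, a defining microglial receptor gene, was detected in every library.

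Reactive astrocyte genes gave 22 tested genes, 0 called and 18 on the higher side, with a median log2 difference of 0.20. Within Wake 18 of 23 were higher (median 0.44), within Isofluran 16 of 23 (median 0.15) and within Ketamine 11 of 23 (median −0.05). Gfap, the astrocyte filament gene, spanned 14.8–54.8 CPM in APP/PS1 with a median of 30.8 CPM, and 10.8–37.5 CPM in WT with a median of 28.6 CPM. Of the 9 APP/PS1 libraries 3 (mice 25, 2 and 26, at 54.8, 47.5 and 41.5 CPM) lay above the highest WT library and the other 6 within the WT range, and Gfap had a log2 difference of 0.23 ± 0.25 (SE). Serpina3n, a secreted protease inhibitor, had 0.14 ± 0.17, and the complement gene C4b −0.02 ± 0.26. Osmr, the oncostatin M receptor gene, had the smallest p of the list at a log2 difference of 0.59 ± 0.30 (SE), and its highest level was 8.37 CPM in mouse 10. Without mouse 10 the list's median was 0.03. Without mice 11, 17 and 20 it was 0.34, and the log2 difference of Gfap was 0.50. Vim, a member of the list, was at 145–954 CPM in the 8 libraries that were also high in the olfactory receptor gene Olfr275 (mice 10, 11, 12 and 25 to 29), which include all 4 Ketamine mice. Without these 8 the list's median was 0.0078 and the log2 difference of Gfap 0.0060. With all 20 libraries kept and a block term for these 8, the values were 0.20 and 0.31.

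Interferon and antigen presentation genes had 15 of 20 on the higher side, 0 called and a median of 0.23. Their summed level was highest in mouse 10 (176 CPM), the library with the most endothelial and mural markers, and then in mice 1 to 4 (113–147 CPM), against 45.4–92.6 CPM in the other 15. Without mice 1 to 4 the median over all states was 0.27. Within Wake 19 of 20 were higher (median 0.38), within Isofluran 13 of 20 (median 0.11) and within Ketamine 8 of 20 (median −0.16). The median over all states ranged from 0.06 without mouse 10 to 0.33 without mouse 17, and was 0.0001 without the 8 Olfr275 libraries. With all 20 libraries kept and a block term for these 8, it was 0.18. The amyloid precursor family and its processing enzymes hardly moved, with 22 tested, 0 called, 14 higher and a median of 0.03. App was the 1 gene among them under an unadjusted 0.05 (log2 0.15 ± 0.07 SE), where 1.1% of all genes tested were. Next by p came the γ-secretase subunit gene Aph1b (log2 0.20 ± 0.10 SE) and the sorting receptor gene Sorl1 (log2 0.14 ± 0.10 SE). Aplp1 averaged 147 CPM in APP/PS1 and 146 CPM in WT.

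Neuronal, circadian clock, cholesterol synthesis and chaperone gene groups had no called gene over all states. Glutamate receptor genes had a median log2 difference of −0.01 (22 tested, 11 higher), GABA-A receptor genes 0.05 (12 tested, 9 higher) and circadian clock genes 0.01 (16 tested, 10 higher). Activity-regulated genes, which follow neuronal firing, had a median of 0.06 (29 tested, 19 higher), and Arc stood at a log2 difference of 0.12 ± 0.27 (SE). The activity-regulated median was −0.14 without the libraries high in Olfr275, 0.08 with a block term for them and 0.20 without mice 11, 17 and 20. Cholesterol synthesis genes had −0.02 (18 tested), heat shock and chaperone genes 0.05 (24 tested), and neuropeptide and calcium-binding genes 0.08 (18 tested). The last of these medians was −0.35 without mouse 2 and 0.22 without mouse 3. The cholesterol synthesis median ran from −0.07 without mouse 2 to 0.08 without mouse 3. The heat shock and chaperone median ran from −0.0009 without mouse 10 to 0.125 without mouse 3. Within Wake 18 of 19 neuropeptide and calcium-binding genes were higher (median 0.53), and within Isofluran 5 of 19 (median −0.42). Their summed level was 643–925 CPM in mice 1 to 4, the mice with the most mitochondrial UMIs, and 194–445 CPM in the other 16, and the part of these mice in the split between treatments was not tested. Cholesterol synthesis genes had 16 of 18 higher in Wake and 1 of 18 in Isofluran. No gene of these lists had an unadjusted p under 0.05 over all states. Of the 6 chromosome-linked sex genes, 3 were higher and 3 lower, with a median of 0.02.

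Oxidative phosphorylation genes encoded in the nucleus, which build the respiratory chain, leaned to one side with small differences. Of 87 tested 83 were higher in APP/PS1, 0 were called, 0 had an unadjusted p under 0.05, and the median log2 difference was 0.13. These genes are expressed together, so the count of 83 is not 83 independent observations. Within Wake 86 of 87 were higher (median 0.49), within Isofluran 7 of 87 (median −0.33) and within Ketamine 67 of 87 (median 0.30). Mice 1 to 4, which also held the most mitochondrial UMIs, had summed levels of 4977–6915 CPM where the others had 1633–3991 CPM. WT mouse 3 in Isofluran was the highest of all. The median was −0.01 without mouse 2 and 0.52 without mouse 3, 0.33 without mice 1 to 4, and 0.03 once a block term grouped mice of adjoining numbers.

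Mitochondrially encoded genes, 13 in number, split in the same way, with 13 of 13 higher in Wake (median 0.97), 0 of 13 in Isofluran (median −1.29) and 3 of 13 over all states (median −0.02, from −0.49 without mouse 2 to 0.51 without mouse 3). Their summed level was 8377–15710 CPM in mice 1 to 4. Cytosolic ribosomal protein genes had 63 of 85 higher and a median of 0.09, with −0.01 without mouse 2 and 0.41 without mouse 3. Rpl10 was the 1 ribosomal gene of 85 under an unadjusted 0.05 (log2 −1.65 ± 0.69 SE), where 1.1% of all genes tested were. It had 139–209 CPM in mice 25 to 29 against 3.70–35.2 CPM in the other 15. Its log2 difference was −0.53 with the block of adjoining mouse numbers, −1.25 with a block for the 8 libraries high in Olfr275, and −0.01 within Ketamine.

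**Figure D3:**
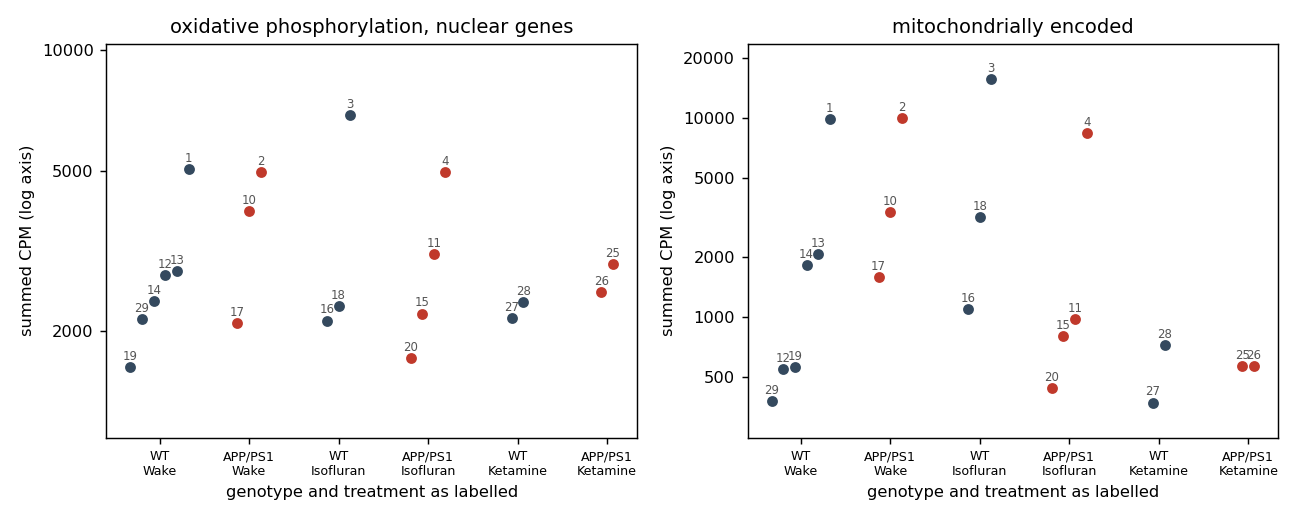
Summed level of nuclear oxidative phosphorylation genes (left) and mitochondrially encoded genes (right) per library (CPM, log axes), by labelled genotype and treatment; numbers are mice. Mice 1 to 4, 1 in each Wake and Isofluran group, stood above the other libraries, and mouse 3 was the highest in both panels.

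**Figure D4:**
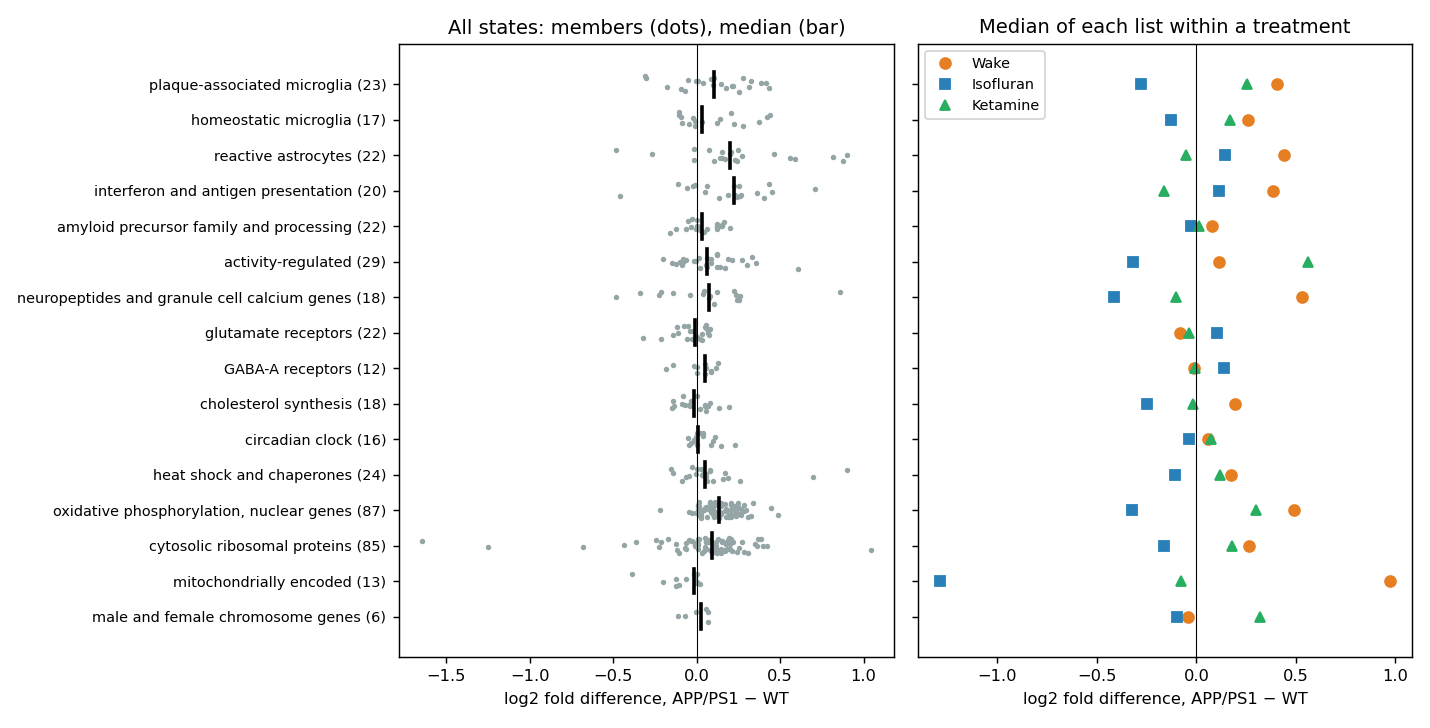
Log2 differences between APP/PS1 and WT for 16 gene lists, with the number of tested genes in parentheses. Left, single genes (dots) and their median (bar) over all states; right, medians within each treatment. Medians over all states lay between −0.02 and 0.23, and several lists had medians of opposite sign in Wake and Isofluran.

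Within Wake, 0 of 20540 genes (0%) were called by edgeR or DESeq2, and 375 (1.83%) had an unadjusted p under 0.05. The latter count was 1077 (5.27%) without mouse 1, 1402 (6.85%) without mouse 17 and 248 (1.21%) without mouse 10. The 3 smallest p-values on the higher side belonged to the homeobox gene Lhx4, the cone G protein subunit gene Gnb3 and the chloride channel gene Ano1, with log2 differences of 2.49, 3.80 and 1.75. Each followed 1 mouse. Gnb3 had 12.2 CPM in mouse 2 and 0–0.921 CPM in all others, and Lhx4 had 3.82 CPM in mouse 2. Ano1 had 26.6 CPM in mouse 17 and 1.84–8.62 CPM in all others. Without mouse 2 the sign of Gnb3 turned, to −0.22. On the lower side, Alpk2 (log2 −1.43), 1700048M11Rik (−1.60) and Tgm7 (−1.26) were at levels of 2.05 CPM or less in every library. Without mice 11, 17 and 20 the fit gave 0 calls in Wake and 1850 of 20305 genes (9.11%) under an unadjusted 0.05. Without mouse 14 as well the counts were 0 and 1663 of 20244 (8.21%). On the simulated counts the Wake comparison recovered 36% of genes at 2-fold and 71% at 3-fold.

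Within Isofluran, edgeR called 0 of 20540 genes (0%), 315 (1.53%) had an unadjusted p under 0.05, and DESeq2 called 1, Olfr275. The count of 315 became 1066 (5.23%) without mouse 4, 2.76% of genes without mouse 15, 207 (1.02%) without mouse 20 and 1141 (5.35%) with the block of adjoining mouse numbers. Olfr275, an olfactory receptor gene named after its values were seen, had 18.2 CPM in mouse 11, 0.0544 CPM in mouse 15 and 0 in the other 2 APP/PS1 mice and the 3 WT mice of this treatment. The lowest p-values on the lower side went to Gm21860 and Gm47283, both on the Y chromosome, with log2 differences of −3.10 and −2.51. Gm47283 was at 2.81–41.3 CPM in the 4 APP/PS1 mice and at 53.6–161 CPM in the 3 WT mice. It was picked by p in these libraries, so this separation is no test. WT Wake mice spanned 26.2–117 CPM, and in Ketamine APP/PS1 mice had 224 and 116 CPM against 95.7 and 75.25 CPM in WT. The transcription factor gene Tfap2d (log2 −4.06) rested on WT mouse 16, with 23.3 CPM against at most 0.802 CPM elsewhere, and without that mouse its difference was 0.88. On the higher side stood Vmn1r88, Gm36173 and Gm16333, at 2.91 CPM or less. Without mice 11, 17 and 20, which leaves 2 APP/PS1 Isofluran mice, 109 of 20305 genes (0.537%) passed the unadjusted 0.05 and 0 were called. With mouse 14 also left out these were 106 of 20244 (0.524%) and 0. On the simulated counts the Isofluran comparison recovered 24% of genes at 2-fold and 71% at 3-fold.

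Within Ketamine, 1 gene was called. Ltbp1, which encodes a protein that holds transforming growth factor β in the extracellular matrix, was at 11.9 and 13.7 CPM in the APP/PS1 mice and 36.6 and 55.7 CPM in the WT mice. Its log2 difference was −1.85 ± 0.26 (SE, edgeR adjusted p = 0.0301), and the other 16 libraries had 7.36–15.7 CPM. The WT Ketamine mice thus stood above every other library, and the APP/PS1 Ketamine mice lay among the rest. Called genes made up 0.00487% of 20540, and 604 (2.94%) had an unadjusted p under 0.05. Without mouse 25 that count was 213 (1%), without mouse 28 it was 379 (1.78%) and without mouse 26 it was 1024 (4.79%), each leaving 1 mouse in a genotype, and with the block of adjoining mouse numbers 1577 (7.4%). With 2 mice a genotype, the same simulated counts, which left low genes unchanged, gave a recovery of 40% at 3-fold and 10% at 2-fold.

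The next genes in Ketamine were likewise highest in the 2 WT mice. Igfbp5, a secreted binding protein of insulin-like growth factors, had 63.6 and 28.8 CPM in APP/PS1 and 477 and 435 CPM in WT (log2 −3.30 ± 0.54 SE, edgeR adjusted p = 0.089). The 63.6 CPM of APP/PS1 mouse 25 also lay above the 16 libraries of the other treatments, which reached at most 55.5 CPM. Fbln1, the extracellular matrix gene of fibulin-1, had 12.1 and 7.77 CPM against 57.9 and 133 CPM (log2 −3.26 ± 0.63 SE, edgeR adjusted p = 0.411). Both WT mice lay above both APP/PS1 mice in each gene, but the genes were picked by p in these libraries, so this adds no support. DESeq2 called 6 genes, all lower in APP/PS1: Ltbp1, Igfbp5, Fbln1 and, named after their values were seen, Mfap5, Adamtsl3 and Tnnc1. With the block of adjoining mouse numbers edgeR called 4 genes, Igfbp5, Mfap5, Fbln1 and Ltbp1. On the higher side, the survival gene Mcl1 had 44.8 and 22.1 CPM against 14.7 and 15.1 CPM, Rin1 11.0 and 9.55 against 4.35 and 5.24 CPM, and 3110056K07Rik 51.8 and 37.0 against 25.6 and 26.9 CPM, none of them called. Of the 29 activity-regulated genes 25 were on the higher side in Ketamine (median log2 0.56) and 5 had an unadjusted p under 0.05 (background 2.94%). Genes of 1 list are not independent observations. Their summed level was 1160 CPM in mouse 25 and 793.5 CPM in mouse 26, against 722 and 679 CPM in WT mice 27 and 28. In Isofluran 9 of the 29 were on the higher side (median −0.32). Fos, the immediate early gene, had 172 and 46.7 CPM in APP/PS1 and 7.45 and 20.3 CPM in WT (log2 2.98 ± 1.26 SE, edgeR adjusted p = 1).

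The Ketamine call went along with other differences between these libraries. Fibroblast markers summed to 233 and 108 CPM in the APP/PS1 Ketamine mice and to 224 and 737 CPM in the WT mice. Vim, an intermediate filament gene, was at 410 and 733 CPM in APP/PS1 and 954 and 833 CPM in WT, and at 6.09–28.7 CPM in 12 of the 20 libraries. Nuclei with at least 10 Vim UMIs held part of the UMIs of the genes lower in APP/PS1. In WT mouse 27, 172 such nuclei with 2.42% of all UMIs held 22.9% of the Ltbp1 UMIs, 33.1% of Igfbp5 and 30.5% of Fbln1, but 0.824% of the neuronal gene Snap25. In WT mouse 28, 237 nuclei with 2.69% of all UMIs held 26% of Ltbp1, 29.8% of Igfbp5 and 29.3% of Fbln1. In the APP/PS1 mice, 92 nuclei of mouse 25 held 0.478% of Ltbp1 and 286 nuclei of mouse 26 held 5.63%. Their shares of Igfbp5 were 8.43% in mouse 25 and 7.42% in mouse 26. For Fbln1 they held 9.86% in mouse 25 and 26% in mouse 26, the latter near the WT shares.

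**Figure D5:**
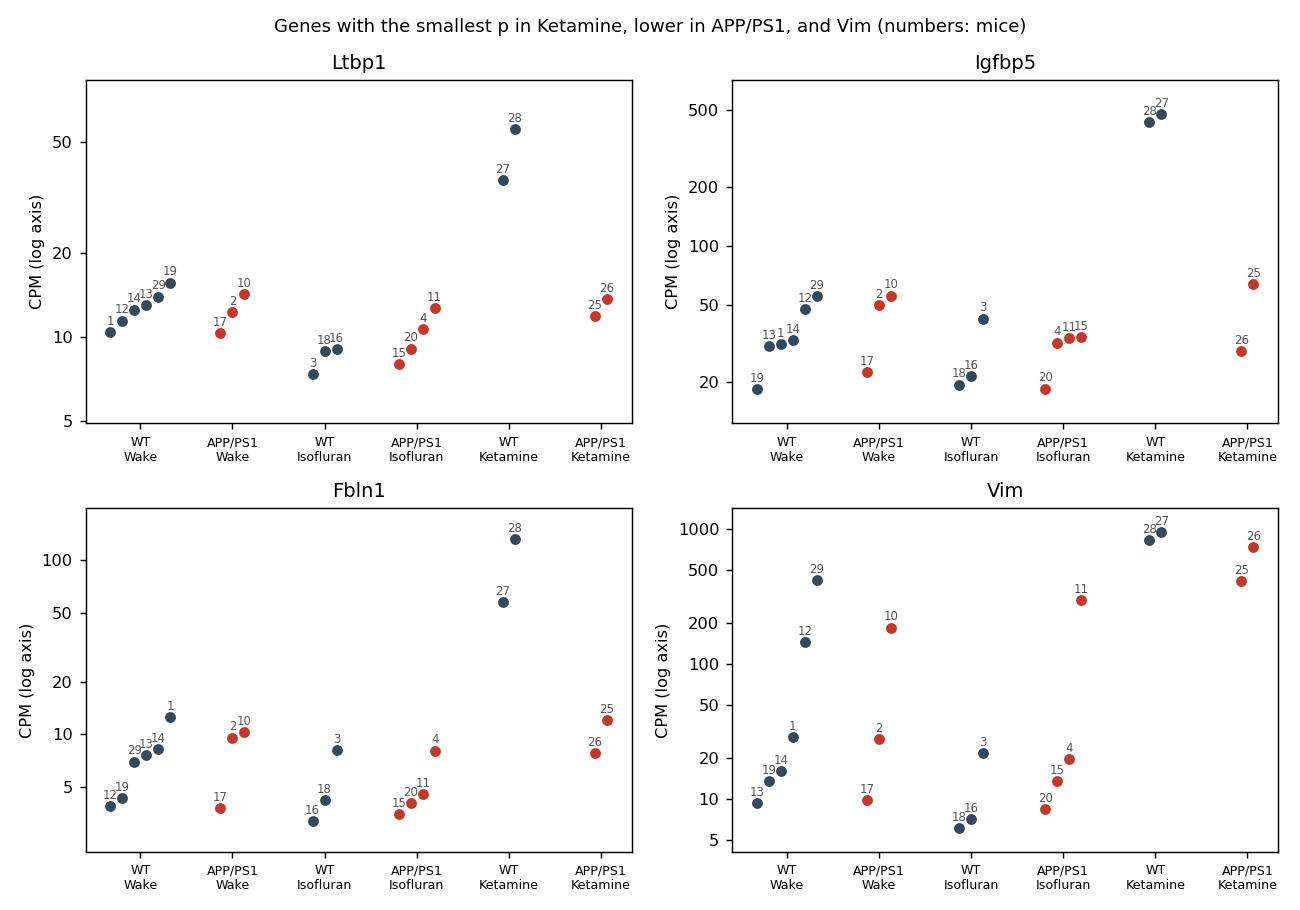
Levels of Ltbp1, Igfbp5, Fbln1 and Vim in each library (CPM, log axes), by labelled genotype and treatment; numbers are mice. WT Ketamine mice 27 and 28 stood above all other libraries in the first 3 genes, while Vim was high in 8 libraries of both genotypes.

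Without these nuclei edgeR called 0 genes in Ketamine (smallest adjusted p = 0.181), and the log2 difference of Ltbp1 in Ketamine was −1.50. This alternative was chosen after values were seen. The nuclei left out held a larger share of Ltbp1 in the WT mice. A smaller difference followed from that choice and is no test. The call was also lost in a fit of the 4 Ketamine libraries alone (Ltbp1 log2 −1.85, edgeR adjusted p = 0.0971), where Prnp was the 1 gene called and was higher in APP/PS1 (adjusted p = 0.0113). It was lost too without mice 1 to 4, with thinned counts, with no gene filter, without mice 11, 17 and 20 (smallest adjusted p = 0.0548, 663 of 20305 genes or 3.27% under an unadjusted 0.05), without these and mouse 14 (smallest adjusted p = 0.125, 617 of 20244 genes or 3.05%), and in 11 of the 20 fits that left out 1 library: mice 2, 4, 12, 13, 14, 16, 18, 25, 26, 28 and 29. The log2 difference of Ltbp1 stayed between −2.11 and −1.50 in all 33 alternative fits, of which 15 called it, with adjusted p-values from 5.59e-08 (DESeq2) to 1 (without mouse 25). Without mouse 27, which leaves 1 WT Ketamine mouse that is assumed to vary like the other groups, edgeR called 3 genes (Ltbp1, Tnnc1 and Fgf7). Fgf7 had 42.3 CPM in that mouse, mouse 28, and 1.26 CPM in mouse 27.

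Whether the genotype difference depended on treatment was tested directly. The interaction of genotype and treatment called 0 of 20540 genes (0%) with edgeR, 479 (2.33%) had an unadjusted p under 0.05, and DESeq2 called 2, Ltbp1 and Igfbp5. On simulated counts with a fold in Isofluran only, this test recovered 5% of genes at 2-fold and 38% at 3-fold. The count of 0 therefore does not show that the genotype difference was the same in all treatments. With the block of adjoining mouse numbers edgeR called 1 gene, Igfbp5. The count of 479 was 893 without mouse 4, 304 without mouse 20, 249 without mouse 25 and 1422 with the block of adjoining mouse numbers. Without mice 11, 17 and 20 edgeR called 0 genes, with 419 of 20305 genes (2.06%) under the unadjusted 0.05, and without mouse 14 as well 0, with 372 of 20244 (1.84%). The 3 smallest p-values were those of Ltbp1 (1.28e-05, edgeR adjusted p = 0.263), Igfbp5 (5.71e-05, adjusted p = 0.587) and Vmn1r88 (0.000419, adjusted p = 0.993). Ltbp1 had log2 differences of −0.05 in Wake and 0.26 in Isofluran beside the −1.85 in Ketamine, and Igfbp5 0.26 and 0.09 beside −3.30. Over alternatives the adjusted p of the interaction ran from 1.41e-05 to 1 for Ltbp1 and from 0.00079 to 1 for Igfbp5.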

How the data were processed

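The authors isolated nuclei from frozen hippocampus, made 10x 3′ libraries and deposited UMI counts per gene and nucleus, not normalized, from Cell Ranger 5.0.0 (named in the submitters' processing notes) on mm10 with introns counted. The methods also name CellBender. The deposited counts were whole numbers, and whether they were corrected is not given in the sources used here. Groups came from the sample titles, and the titles' numbers were taken as separate mice. The design text of the series gives other sizes for the Wake and Isofluran groups. The methods describe processing in batches of 4 with awake and anesthetized mice of both genotypes, and the labels tie no mouse to a batch, so runs of mouse numbers stood in as a block in 1 alternative. Gene members, lists and marker sets were chosen with earlier results of these data known.

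For each of the 20 libraries the counts of all nuclei were summed per gene (0 nuclei had under 200 genes). Doublets were not removed, and leaving out the 7% of nuclei with the most UMIs was an alternative. Sums, after the filterByExpr filter and TMM scaling, entered the quasi-likelihood F test of edgeR 4.0.16 under R 4.3.3 (Benjamini-Hochberg over all genes tested, threshold 0.05), with treatment as covariate over all states, and with 1 mean per group for single treatments and the interaction. The common biological coefficient of variation was 0.318. SE values of log2 differences were derived as the absolute log2 difference divided by the square root of its F statistic. Single values were tested by exact permutation of genotype labels within treatment on log2 CPM (scipy 1.17.1, numpy 2.4.6, pandas 2.3.3, Python 3.11.15). CPM refers to TMM library sizes. The pseudocount was 1 CPM for marker sums. Figures used matplotlib 3.10.9.

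Named genes were Prnp and App, the 10 genes with the smallest p in each direction over all states, the 3 in each direction per treatment, the 3 of the interaction, and defining genes and up to 3 smallest p of each list. Others were chosen after their values were seen. Coordinates are those of GENCODE M21 on GRCm38. The test was checked on simulated data: over all states, on 19740 genes, 4.57% of calls were false. Alternatives were DESeq2 1.42.0, other size factors and filters, thinned counts, blocks, covariates and left-out libraries. One listed gene was not analysed here. Total counts were 9243992 to 25394891 per library. Thinning all libraries to the smallest left 205 of 17918 genes (1.14%) under an unadjusted 0.05 over all states.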

Additional observations from a re-analysis of the deposited data

Results flagged for a closer look

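Single libraries stood far from the rest of their group in 19 of 120 checks (15.8%, where chance gives about 1 in 20), by Dixon's criterion in the groups large enough for it, WT Wake (6 mice) and APP/PS1 Isofluran (4 mice). The genes checked were in part picked for small p-values, which can rest on 1 library, and some lay near 0 counts (the 0.0454 CPM of Itgax is 1 UMI), so the share is not to be read against chance. Within APP/PS1 Isofluran, mouse 11 was apart in Cngb3 (3.98 CPM), D130079A08Rik (2.51 CPM) and Ttr, the choroid plexus transport protein gene (782 CPM). Mouse 4 was apart in Gfap (30.8 CPM), Npy, a neuropeptide gene (32.7 CPM), and the mitochondrial share of UMIs (0.939%). Mouse 20 was apart in Olfr1330 (0.136 CPM), Igfbp5 (18.5 CPM, low) and Itgax (0.0454 CPM).

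Within WT Wake, mouse 1 was apart in Srarp (1.66 CPM), Npy (36.2 CPM), Aplp1 (297 CPM) and the mitochondrial share (1.05%). Mouse 29 was apart in Olfr1330 (2.25 CPM), Gm10076 (13.3 CPM), D130079A08Rik (1.16 CPM) and Itgax (0.155 CPM). Mouse 12 was apart in Cngb3 (2.97 CPM) and mouse 19 in Cst7 (2.16 CPM).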

How the results depend on the processing

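No gene was called over all states in any of the other alternatives run; the exceptions were 1 call (Prnp) without mice 11, 17 and 20 and 1 (Prnp) without mice 11, 14, 17 and 20, both chosen after seeing the data. Unadjusted counts ran from 53 without the 8 Olfr275 libraries to the 1078 without mice 11, 17 and 20. Prnp kept its direction and passed the exact test in all 23 alternatives, with log2 differences of 1.07 without mice 1 to 4 (exact p = 0.0381) and 1.28 within treatment and run of mouse numbers (exact p = 0.0174), and 1.02 to 1.45 leaving out 1 library. Wake gave 0 calls in all 33 alternatives. Isofluran gave 1 call with DESeq2 and 0 otherwise. Ketamine gave 6 calls with DESeq2, 4 with the run block (Igfbp5, Mfap5, Fbln1 and Ltbp1), 2 with the Olfr275 block, and 0 with no gene filter, thinned counts, without mice 1 to 4, without mice 11, 17 and 20, without mice 11, 14, 17 and 20, and without nuclei with many Vim UMIs. Leaving out 1 library gave 0 to 3 calls in Ketamine. From the 4 Ketamine libraries alone, edgeR called 1 gene, Prnp (higher). The interaction gave 2 calls with DESeq2, 1 with the run block (Igfbp5) and 0 otherwise. Gnb3 in Wake ran from −0.22 without mouse 2 to 4.37 without mouse 10, and Tfap2d in Isofluran from −4.63 without mouse 3 to 0.88 without mouse 16. The alternatives built on Olfr275 and on nuclei with many Vim UMIs were also chosen after values were seen. The cause of the lost calls was not tested. No paired analysis was possible because the labels' replicate numbers are mouse numbers, and no number occurs in more than 1 group. The run block stands in for processing batches that the labels do not give. Ketamine has 2 mice a genotype, so its results rest on single libraries.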

Other observations

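Red blood cell genes held 4 of the genes with an unadjusted p under 0.05 over all states, out of 5 in the list (1.1% of all genes tested had one), none called. The genes of this list are not independent observations. Their summed level did not pass the exact permutation test (p = 0.0574, adjusted p = 0.45). Hbb-bs, a β-globin gene named after its values were seen, averaged 29.9 CPM in APP/PS1 and 8.20 CPM in WT (log2 2.06 ± 0.89 SE). Its level was 115 CPM in mouse 4 and 76.4 CPM in mouse 10, both labelled APP/PS1, and 27.3–36.2 CPM in mice 1, 2 and 3 of both genotypes. In mice 15 and 16 the list summed to 45.3 and 41.5 CPM with Hbb-bs at 0.217 and 0.529 CPM. Other members thus made up most of the sum there, and 1 of the 5 genes had a log2 difference of −0.13. Ly6c1, an endothelial gene, had 77.8 CPM in mouse 10 and at most 25.8 CPM in any other library.

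Libraries of both genotypes fell into 2 sets by a gene outside the lists. Olfr275 had 12.8–39.0 CPM in mice 10, 11, 12 and 25 to 29 and 0–0.0696 CPM in the other 12 libraries. Vim followed the same split, with 145–954 CPM against 6.09–28.7 CPM. Of these 8 libraries 4 were labelled APP/PS1 and 4 WT. With the split as a block, 0 genes were called over all states and 220 had an unadjusted p under 0.05; without the 8 libraries these counts were 0 and 53. In Ketamine the block gave 2 calls, Ltbp1 and Igfbp5. Ribosomal Rps27 was at 94.8–207 CPM in mice 25 to 29 and 4.89–74.8 CPM elsewhere.

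Mouse 2, labelled APP/PS1 and Wake, had 4.08 CPM of Tph1, a serotonin synthesis gene, against at most 0.348 CPM elsewhere. It also had 1.75 CPM of Crx, a transcription factor of photoreceptors and pineal cells, against at most 0.489 CPM. The same library was the 1 with the highest Cngb3 and Gnb3.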
